A study of Mus musculus with 12 samples.

Results

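The MYC, MAX and MXD network was followed through 8 genes of 15113 in the count table, namely Myc, Max, Mnt, Mxd1, Mxd3, Mxd4, Mxi1 and Mga, which were taken by their gene symbols. All 8 passed the filter on low counts, along with 12730 genes in all that were tested. The cells were C2C12 myotubes, fused from a mouse myoblast line after the growth serum was replaced by horse serum. A set of 6 libraries came from myotubes given 20 μM BAM15 in DMSO for 16 h and 6 from myotubes given the DMSO vehicle for as long, and both groups are the same line with no genetic change. BAM15 is a mitochondrial uncoupler, a compound that lets protons return to the mitochondrial matrix without ATP being made. Expression was measured with QuantSeq, which reads the 3′ ends of polyadenylated transcripts, so long transcripts give no more reads than short ones. Counts of different genes are set side by side below on that basis. Their 3′ ends differ in other ways, such as overlap with other genes, so comparisons between genes are approximate.

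MYC is a transcription factor that binds DNA as a dimer with MAX, most readily at the E-box CACGTG, and activates genes of ribosome production, metabolism and division. MAX also pairs with the MXD proteins, which are encoded by Mxd1, Mxi1, Mxd3 and Mxd4, and with MNT and MGA. These dimers occupy the same E-boxes and repress, the MXD and MNT dimers through the SIN3 corepressor and MGA within a Polycomb complex termed PRC1.6. In muscle precursors MYC is known to be high while cells divide and to decline as they differentiate, whereas several MXD genes are known to rise in cells that leave the cycle.

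RefSeq promoters of GRCm38.p6, each running from 250 bases before to 50 bases after a start site, were given for 7 of the 8 genes. Motifs searched on both strands were the E-box CACGTG, the E2F site in a form of 8 bases (TTTCCCGC and its variant TTTGGCGC) and the CARE element TGATGCAA, which ATF4 dimers bind. An E-box stood in the promoters of Mnt, Mxd4 and Max, against 7.15% of the 32817 promoters in the table. Neither the E2F form of 8 bases, held by 1.56% of all promoters, nor the CARE element, held by 0.896%, matched any of these 7 genes. A looser E2F form of 7 bases (TTCCCGC with the variants TTGGCGC and TTCGCGC as well as TTGCCGC) was added after the promoters had been read, that of Mxd3 among them, so its match there is not an independent observation. It was found in 9.57% of all promoters, in that of Mxd3 and in a single promoter entry of Mxi1. There it began 10 bases after the start site, and the other Mxi1 entries held no match. The 7 genes had 9 promoter entries, and the percentages over all promoters count entries rather than genes. The 4 promoters below are those of the genes past the thresholds described later and of Mxd4, cut to the bases ahead of the annotated exons. They lie at chr11:74830674-74830919 (plus strand), chr5:34187721-34187960 (minus), chr13:55329824-55329981 (minus) and chr6:86669162-86669409 (minus). Capitals mark the E-box in Mnt and Mxd4 and the looser E2F form in Mxd3, and Mxd1 has no match.
Mnt: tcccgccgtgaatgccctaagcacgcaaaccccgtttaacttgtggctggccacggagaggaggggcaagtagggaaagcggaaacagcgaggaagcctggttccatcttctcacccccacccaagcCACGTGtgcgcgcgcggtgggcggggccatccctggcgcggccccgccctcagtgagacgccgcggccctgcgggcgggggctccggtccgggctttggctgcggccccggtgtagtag
Mxd4: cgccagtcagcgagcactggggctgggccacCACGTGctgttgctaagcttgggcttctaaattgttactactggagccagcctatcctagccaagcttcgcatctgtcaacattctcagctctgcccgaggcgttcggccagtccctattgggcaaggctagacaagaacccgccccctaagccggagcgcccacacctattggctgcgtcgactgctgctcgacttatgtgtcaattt
Mxd3: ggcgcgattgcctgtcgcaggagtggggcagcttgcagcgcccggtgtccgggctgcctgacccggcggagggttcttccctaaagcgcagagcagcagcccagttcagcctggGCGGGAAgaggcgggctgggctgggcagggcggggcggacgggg
Mxd1: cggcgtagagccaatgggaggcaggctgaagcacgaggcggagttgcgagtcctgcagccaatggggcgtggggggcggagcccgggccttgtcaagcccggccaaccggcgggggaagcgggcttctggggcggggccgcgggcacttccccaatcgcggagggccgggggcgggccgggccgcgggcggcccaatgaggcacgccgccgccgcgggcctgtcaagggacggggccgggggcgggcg
The E-box began 123 bases before the start site in Mnt and 219 bases before it in Mxd4, and in Max it began 3 bases before the start site and ran across it. A match describes letters only and does not show that a factor was bound.

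Total counts were between 13983725 and 18751780 in the BAM15 libraries and between 15299135 and 18866728 in the vehicle libraries. The BAM15 libraries numbered 1 to 3 stood apart from those numbered 4 to 6 on the second principal component, which held 17.0% of the variance, with scores of -37.6 to -20.5 against 7.98 to 41.7. The vehicle libraries lay closer together on it, at -10.1 to 0.0636 for numbers 1 to 3 and -1.29 to 10.4 for numbers 4 to 6. The labels name no batch, and values within each set of numbers are given beside the results. The labels do not say that libraries came from separate cultures, so the p-values below measure the spread between these libraries, which may be technical. Myotube genes were abundant in every library, with summed normalized counts over 10 markers of 487835 to 549945 in vehicle and 442323 to 585636 in BAM15. Markers of dividing cells were lower with BAM15, at a summed 3005 to 3307 over 10 genes against 7174 to 8172. The sum for markers of undifferentiated myoblasts was also lower, at 2231 to 3428 over 9 genes against 4854 to 5651. Of these 9 genes, 6 fell and 2 passed in neither direction at the adjusted p threshold given below. Myf5 rose, from a mean of 148 to 479. The part of these cell types in the results was not tested, and fewer cells of a type cannot be told apart from less RNA per cell. The 4 fibroblast and adipocyte markers that were tested summed to 9521 to 10197 in vehicle and 5033 to 6033 in BAM15. Most of this was Ly6a, with means of 5292 and 2411, and Dcn, with 4238 and 2671, while Cd34 was at 293 and 298 and Pdgfra at 40.02 and 31.4. Fabp4 reached 3 counts and Dpt 15 in the highest library, and neither was tested or enters the sums. Adipoq and Plin1 were not in the table used here.

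The members were chosen by a list of symbols drawn up with the fold changes of this same contrast known, so their changes are given as a description without a test. Levels are TMM-normalized counts, which are counts scaled to a common library size, and changes are log2 fold changes of BAM15 over vehicle with their standard error (SE). A member is said to pass the adjusted p threshold when its edgeR quasi-likelihood p-value, adjusted by the Benjamini-Hochberg method over the 12730 genes, lay below 0.01. It passed all 3 thresholds of the study when its mean over the 12 libraries also exceeded 50 normalized counts and its change exceeded 2-fold. Of the 8 members, 2 were higher and 3 lower at the adjusted p threshold, which 22% and 20.3% of all tested genes passed in these directions. One was higher and 2 were lower past all 3 thresholds, beside 3.7% and 3.58% of tested genes. The libraries of the 2 groups did not overlap for 2 members that were higher and 3 that were lower, beside 17.1% and 17% of tested genes. These shares are printed for scale only.

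**Figure D1:**
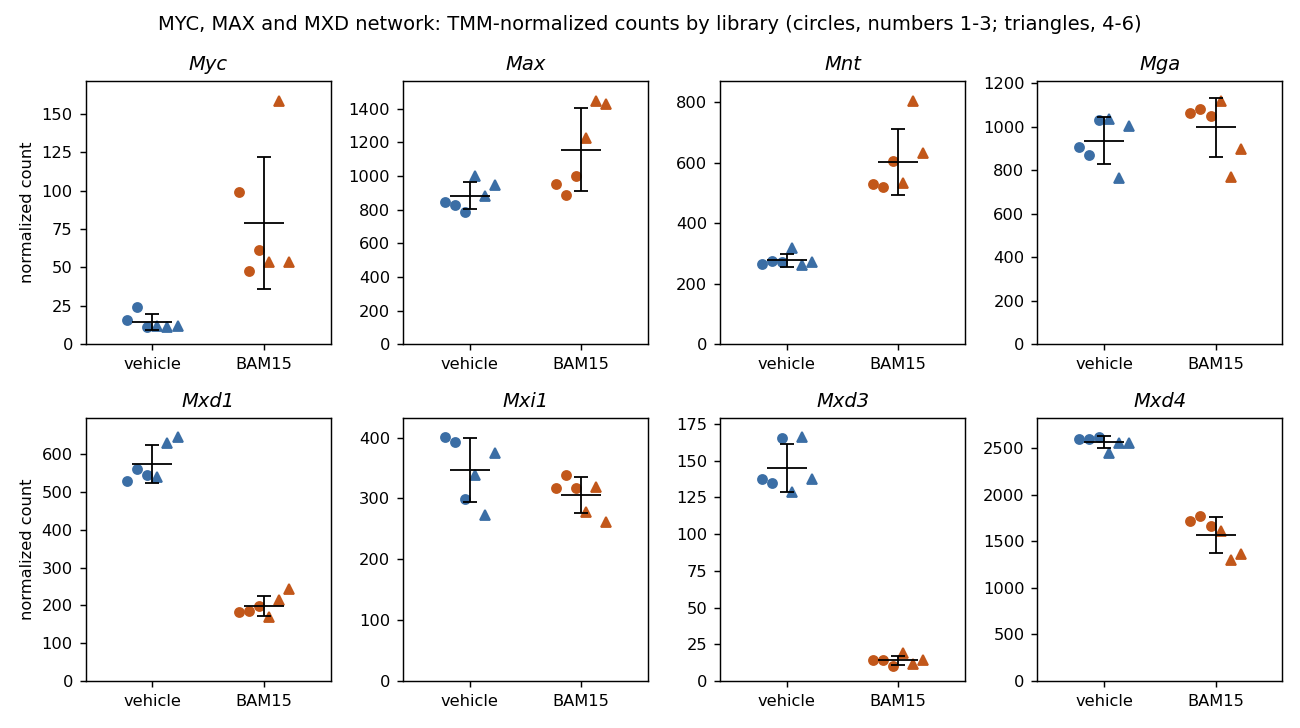
TMM-normalized counts (vertical axes, from 0) of the 8 network genes in the 6 vehicle (blue) and 6 BAM15 (orange) libraries, with circles for library numbers 1 to 3, triangles for 4 to 6, and black bars for the mean ± SD. Groups do not overlap for Myc, Mnt, Mxd1, Mxd3 and Mxd4, and they overlap for Max, Mga and Mxi1.

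Myc (ENSMUSG00000022346; GRCm38 chromosome 15, 61985391 to 61990374, plus strand) encodes the activating member. Its normalized counts in the 6 vehicle libraries were between 11.3 and 24.5 with a median of 11.8, and in the BAM15 libraries between 47.5 and 159 with a median of 57.4. Every BAM15 library lay above every vehicle library, and BAM15 replicates 5 and 1 stood highest, at 159 and 99.0. The means were 14.5 ± 5.19 and 78.9 ± 43.2 (SD, n = 6), and the log2 fold change was 2.45 (SE 0.34). These levels rest on few reads, 11 to 23 in a vehicle library and 44 to 169 in a BAM15 library. The mean over all libraries was 46.7 normalized counts, just under the 50 required, so Myc passed the adjusted p threshold and not all 3. Without vehicle replicate 4 that mean was 50.2, and Myc then passed all 3, as it did without vehicle replicate 5. Within library numbers 1 to 3 the log2 fold change was 2.02 (SE 0.31), and within numbers 4 to 6 it was 2.92 (SE 0.53).

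Max (ENSMUSG00000059436; chromosome 12, 76937269 to 76962201, minus strand) encodes the partner shared by all the others. It had 786 to 1002 normalized counts in vehicle (median 864) and 888 to 1450 in BAM15 (median 1113). The groups overlapped over all 12 libraries and did not overlap within either set of numbers. In numbers 1 to 3 the vehicle libraries were at 786 to 844 and the BAM15 libraries at 888 to 998, and in numbers 4 to 6 they were at 885 to 1002 and 1227 to 1450. The means were 882 ± 80.3 and 1157 ± 246 (SD, n = 6), with a log2 fold change of 0.39 (SE 0.12), which did not pass the adjusted p threshold. Max passed it under several alternatives, among them DESeq2, numbers 4 to 6 alone, and leaving out BAM15 replicate 1 or 2. The change was 0.20 (SE 0.07) within library numbers 1 to 3 and 0.53 (SE 0.09) within numbers 4 to 6.

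Mnt (ENSMUSG00000000282; chromosome 11, 74830920 to 74845725, plus strand) encodes a widely expressed antagonist of MYC, and its promoter is 1 of the 2 printed with an E-box. Vehicle libraries held 262 to 319 normalized counts of Mnt (median 272), and BAM15 libraries held 520 to 806 (median 569). The groups did not overlap, and BAM15 replicate 5, the highest for Myc, was also the highest for Mnt. Mean levels were 278 ± 21.1 and 604 ± 109 (SD, n = 6), a 2.18-fold difference with a log2 fold change of 1.12 (SE 0.11). Mnt was the only member higher past all 3 thresholds, and it lay just inside the 2-fold limit. Within library numbers 1 to 3 the log2 fold change was 1.02 (SE 0.09), and within 4 to 6 it was 1.20 (SE 0.15).

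Mga (ENSMUSG00000033943; chromosome 2, 119897228 to 119969581, plus strand) encodes the largest protein of the network, with a T-box domain beside the part that pairs with MAX. Its normalized counts were 764 to 1036 in vehicle (median 953) and 766 to 1119 in BAM15 (median 1056), with overlapping groups. The log2 fold change was 0.09 (SE 0.10), 0.18 (SE 0.07) within numbers 1 to 3 and -0.02 (SE 0.15) within 4 to 6, so its sign was not the same in the 2 sets. It passed no threshold.

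Mxd1 (ENSMUSG00000001156; chromosome 6, 86647042 to 86669161, minus strand) encodes the first described MXD repressor, a factor known from cells that stop dividing and differentiate. In vehicle it had 528 to 645 normalized counts (median 554), and in BAM15 169 to 243 (median 192). Every BAM15 library was below every vehicle library. The means were 575 ± 49.7 and 198 ± 26.6 (SD, n = 6), 2.90-fold lower with BAM15, and the log2 fold change was -1.54 (SE 0.09). It was -1.53 (SE 0.09) within numbers 1 to 3 and -1.55 (SE 0.14) within 4 to 6, and Mxd1 passed all 3 thresholds.

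Mxd3 (ENSMUSG00000021485; chromosome 13, 55325168 to 55329823, minus strand) encodes an MXD protein that, unlike the others, is known to be expressed in S phase. The vehicle libraries had 129 to 166 normalized counts (median 137) and the BAM15 libraries 10.3 to 19.2 (median 14.03). Every BAM15 library was far below the lowest vehicle library. The means of 145 ± 16.3 and 13.9 ± 3.11 (SD, n = 6) gave a log2 fold change of -3.38 (SE 0.15), past all 3 thresholds, with -3.49 (SE 0.22) within numbers 1 to 3 and -3.29 (SE 0.24) within 4 to 6. BAM15 libraries held 11 to 18 reads of it. Prelid1, on the opposite strand, overlaps 105 of the 400 bases at the 3′ end of Mxd3, and the strand used for counting was not given in the sources used here.

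Mxd4 (ENSMUSG00000037235; chromosome 5, 34173883 to 34187720, minus strand) encodes an MXD repressor and had the highest mean of the 8 transcripts in both groups. Its normalized counts in vehicle kept to a narrow range of 2447 to 2616 (median 2580), and those in BAM15 were 1297 to 1773 (median 1637). The groups did not overlap, and within BAM15 replicates 1 to 3, at 1667 to 1773, lay above replicates 4 to 6, at 1297 to 1607. Vehicle replicates 1 to 3, at 2602 to 2616, likewise lay above vehicle replicates 4 to 6, at 2447 to 2559. Means were 2563 ± 62.6 and 1570.5 ± 194 (SD, n = 6), and the log2 fold change of -0.71 (SE 0.07) passed the adjusted p threshold while staying under 2-fold. In read terms this was the largest difference of the network. The change was -0.61 (SE 0.06) within numbers 1 to 3 and -0.83 (SE 0.09) within 4 to 6. The predicted gene Gm42846 covers 353 of its last 400 bases on the opposite strand, so reads of the 2 genes cannot be told apart if strand was not used.

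Mxi1 (ENSMUSG00000025025; chromosome 19, 53310518 to 53375810, plus strand), the remaining MXD gene and known also as Mxd2, had 273 to 401 normalized counts in vehicle (median 356) and 261 to 339 in BAM15 (median 318). The groups overlapped, and the log2 fold change of -0.18 (SE 0.10) passed no threshold. It was -0.17 (SE 0.11) within numbers 1 to 3 and -0.21 (SE 0.13) within 4 to 6. In the last 400 bases of their transcripts, the stretch searched, none of the 8 members held a run of 50 bases that another annotated transcript carries in the same direction.

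**Figure D2:**
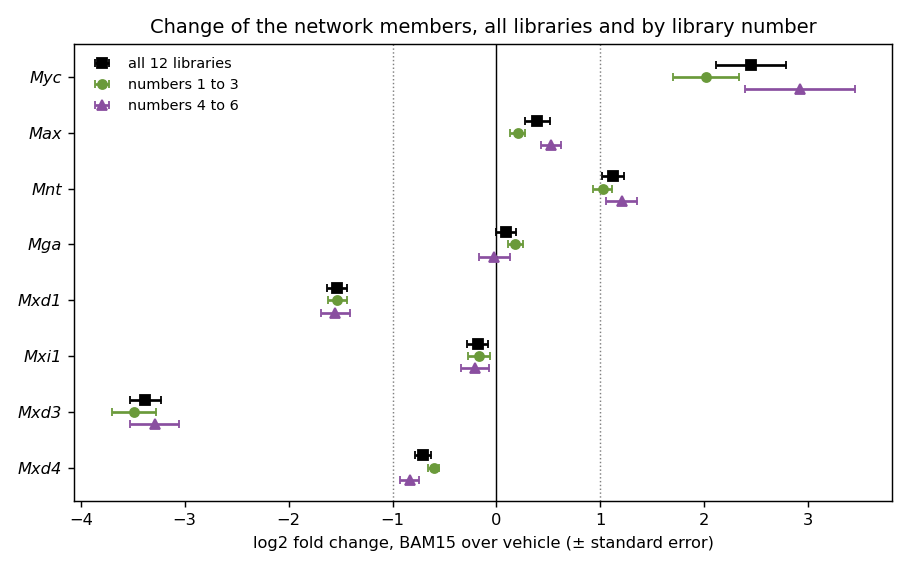
Log2 fold change of BAM15 over vehicle (horizontal axis, ± SE) of each network gene from all 12 libraries (black squares), from library numbers 1 to 3 (green circles) and from numbers 4 to 6 (purple triangles), with dotted lines at 2-fold. Myc, Mnt and Max lie to the right of 0 and Mxd1, Mxd3, Mxd4 and Mxi1 to the left in all 3 fits. Mga changes side, from 0.18 within numbers 1 to 3 to -0.02 within 4 to 6.

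The order of the transcripts was not the same in the 2 groups. On the scale of mean normalized counts, vehicle myotubes ranked Mxd4 (2563) first, followed by Mga (934) and Max (882), whose libraries overlapped, then Mxd1 (575), then Mxi1 (346) and Mnt (278), whose libraries also overlapped, and last Mxd3 (145) and Myc (14.5). In BAM15 the order was Mxd4 (1570.5), Max (1157), Mga (996) and Mnt (604), each overlapping the next, then Mxi1 (305), Mxd1 (198), Myc (78.9) and Mxd3 (13.9) without overlap. Mnt thus stood below Mxd1 in all vehicle libraries and above it in all BAM15 libraries, with a ratio of Mnt to Mxd1 counts of 0.416 to 0.592 (median 0.496) in vehicle and 2.61 to 3.78 (median 2.98) in BAM15. Myc and Mxd3 exchanged the last 2 places. Among all tested genes, the vehicle level of Myc was at the 5.61 percentile and that of Mxd4 at the 90.7 percentile.

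Shares were taken of the summed normalized counts of the 7 members other than Max. Of this sum Mxd4 made up 50.8% to 54.9% in vehicle and 36.3% to 44.8% in BAM15. Mnt made up 5.43% to 6.63% in vehicle and 13.1% to 22.6% in BAM15, and Mga 16.4% to 21.5% and 21.5% to 29.6%. The median share of Mxd1 was 11.4% in vehicle and 4.88% in BAM15, and that of Mxd3 was 2.80% and 0.363%. Myc accounted for 0.232% to 0.503% in vehicle and 1.20% to 4.44% in BAM15, so that it remained a small part of these transcripts in every library. Between the groups, shares overlapped for Mxi1, at 5.86% to 8.25% and 7.35% to 8.94%, and barely for Mga, and they did not for the other 5 genes. The sum of the 4 MXD transcripts was 3452 to 3711 normalized counts in vehicle and 1840 to 2311 in BAM15. Divided by Myc alone, it was 151 to 320 in vehicle and 11.6 to 48.6 in BAM15. The MYC relative Mycl, not a member here, enters neither the shares nor this ratio. Its mean was above that of Myc in both groups and changed the other way, at 188 in vehicle and 101 in BAM15. For Myc the means were 14.5 and 78.9, so the ratio does not describe the MYC family as a whole. Because the shares add up to a whole, a higher share of one gene lowers the others, and the ranges are a description of RNA and not of protein. They also take counts of different genes as comparable, which is less sure for Mxd4 and Mxd3 with their overlaps on the opposite strand.

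**Figure D3:**
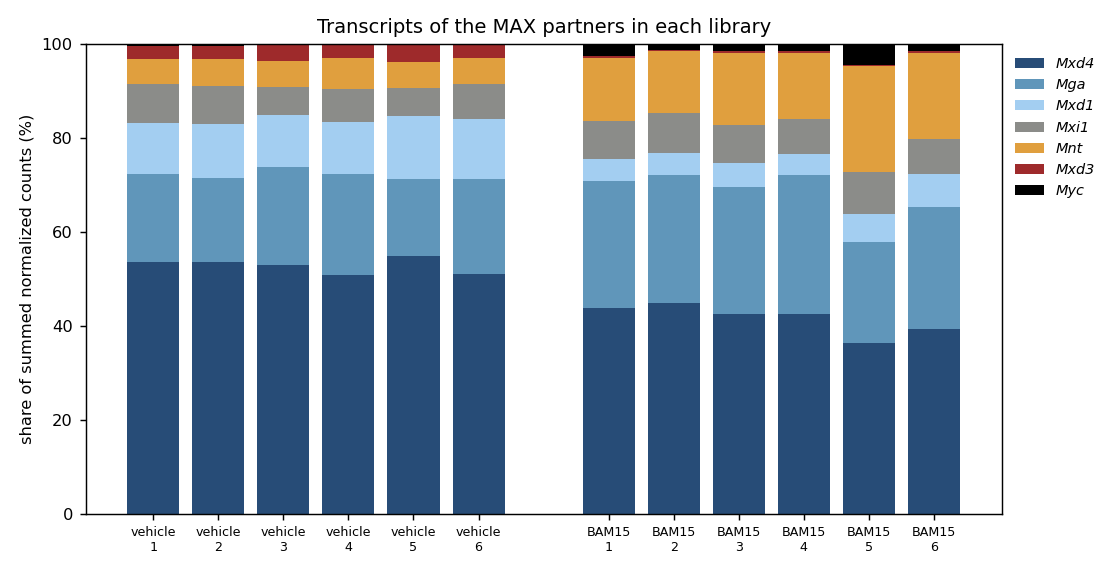
Share in percent (vertical axis) of each of the 7 members other than Max in their summed TMM-normalized counts. Each library is 1 stacked bar, with vehicle at left and BAM15 at right. The median share of Mnt (yellow) is 5.57% in vehicle and 14.8% in BAM15, and that of Mxd4 (dark blue) is 53.2% and 42.6%.

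For each member the 3 genes with the most similar pattern were those with the smallest root-mean-square (RMS) difference of log2 normalized counts over the 12 libraries, each gene being centred on its vehicle mean. This distance includes the difference between the groups, so it picks mainly genes with a similar log2 fold change. Those nearest to Mxd3, for example, changed by -3.44, -3.41 and -3.31, beside its own -3.38. Shared regulation was not tested. Mxd3 was nearest to Pclaf (RMS 0.23), Cmklr1 (0.23) and Tk1 (0.26), of which Pclaf and Tk1 encode proteins of DNA replication and nucleotide supply. Mxd1 was nearest to the mitotic kinase gene Aurka (0.14), Pcolce2 (0.14) and Depp1 (0.17). The nearest genes to Mnt were Iars, which encodes the cytosolic isoleucyl-tRNA synthetase (0.11), AW549877 (0.12) and Tnfaip2 (0.12). For Myc they were Mtm1 (0.45), Fez1 (0.45) and Snhg15 (0.46), at a larger distance than for any other member. A vehicle library held only 11 to 23 reads of Myc, and the scatter of such low counts adds to its distance from any gene. Max was nearest to Plpbp, Tnpo1 and Vapa (RMS 0.06 to 0.07), Mxd4 to Lmo7, Ehd4 and Dusp27 (0.04 to 0.05), Mxi1 to Gstm5, Rbm10 and Rbm20 (0.09 to 0.11), and Mga to Ralgapa1, Akap9 and Bod1l (0.08).

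Genes that work with the network were counted from lists of its partners, regulators and known targets, with edgeR adjusted p-values over all tested genes. For scale, over all 12730 genes 22% rose and 20.3% fell at the adjusted p threshold, 3.7% and 3.58% did so past all 3 thresholds, and the median log2 fold change was 0.02. Of 3 further network factors in the table, Mycl, a MYC relative, fell from 188 ± 22.9 to 101 ± 14.9 normalized counts (SD, n = 6; log2 fold change -0.90, SE 0.11, adjusted p = 8.39e-06). Mlxip, which encodes the glucose-responsive factor MondoA, rose from 99.8 ± 17.6 to 152 ± 25.4 (SD, n = 6; 0.60, SE 0.14, adjusted p = 0.00174) and did not pass within library numbers 1 to 3. The MondoA partner gene Mlx was at 412 ± 38.1 and 427 ± 46.0 (SD, n = 6; 0.05, SE 0.08, adjusted p = 0.638), and Psmc3ip covers 385 of its last 400 bases on the opposite strand. Mycn and Mlxipl were not in the table used here.

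Among 14 genes of the SIN3 and NCOR corepressors, 1 rose and 4 fell at the adjusted p threshold (median log2 fold change -0.10), which 22% and 20.3% of all tested genes passed. The 9 genes of PRC1.6, the complex of MGA, gave 3 that rose and 2 that fell (median -0.15), and 13 coactivators of MYC with its partner MIZ1 gave 1 and 1 (median 0.11). No gene of these lists changed by more than 2-fold, and with 1 library left out the corepressors gave 0 to 2 that rose and PRC1.6 gave 0 to 2 that fell. Among 16 genes that govern the stability of MYC protein, some raising and some lowering it, 2 rose and 6 fell (median -0.16). Pim1, a kinase known to stabilize MYC, rose from 566 ± 37.0 to 3902 ± 240 normalized counts (SD, n = 6; log2 fold change 2.78, SE 0.06, edgeR adjusted p = 8.99e-14). Plk1, Aurka and Cip2a, which encode 2 mitotic kinases and an inhibitor of the phosphatase PP2A that are also known to stabilize it, fell, with log2 fold changes of -2.04, -1.55 and -1.17 (edgeR adjusted p = 3.64e-11, 8.82e-10 and 6.51e-07). Fbxw7, whose product is known to act in the degradation of MYC, also fell past all 3 thresholds. Its log2 fold change was -1.07 (SE 0.08, edgeR adjusted p = 3.13e-08), so the counts of this list give no direction for MYC protein. Plk1 and Aurka are also genes of dividing cells, whose markers were lower in the BAM15 libraries.

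The lists of known MYC-activated genes did not share a direction. Of 34 genes of ribosome biogenesis and the nucleolus, 26 rose, 0 fell (edgeR or DESeq2, with no log2 fold change of the list below 0) and 8 passed in neither direction, with a median log2 fold change of 0.50 (0.58 within library numbers 1 to 3 and 0.38 within 4 to 6). Most of these changes were under 2-fold, and 2 genes exceeded it. Ppan, which encodes a factor for the large ribosomal subunit, rose from 255 ± 39.7 to 604 ± 28.8 normalized counts (SD, n = 6; log2 fold change 1.25, SE 0.09, edgeR adjusted p = 3.08e-08). Gnl3, which encodes nucleostemin, rose from 2072 ± 106 to 4501 ± 258 (SD, n = 6; 1.12, SE 0.05, edgeR adjusted p = 1.96e-10). Of 32 metabolic targets, 12 rose and 5 fell (median 0.10), 7 and 1 of them past all 3 thresholds, beside 22% and 20.3% of all tested genes at the adjusted p threshold and 3.7% and 3.58% past all 3. The glutamine transporter gene Slc1a5 (3.70-fold), the mitochondrial serine enzyme gene Shmt2 (3.02-fold) and the chaperone gene Hspd1 (2.60-fold) rose the most, and the lactate dehydrogenase gene Ldha fell by 1.01 on the log2 scale (SE 0.11).

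Of 18 cell cycle targets of MYC, 2 rose and 10 fell, against 22% and 20.3% of all tested genes, with a median log2 fold change of -0.98 (-1.07 within numbers 1 to 3 and -0.89 within 4 to 6). Birc5 (survivin), Ccna2 (cyclin A2) and Mcm5 (a subunit of the replicative helicase) fell, with log2 fold changes of -2.31, -2.13 and -1.93 (SE 0.07, 0.12 and 0.13). Exosc9 covers 47 of the last 400 bases of Ccna2 on the opposite strand, and 4.27% of the 50-base windows at the end of Mcm5 occur in other genes. Ccnd2, the gene of cyclin D2, rose from 2460 ± 55.2 to 6607 ± 629 normalized counts (SD, n = 6; log2 fold change 1.43, SE 0.06, edgeR adjusted p = 7.85e-11). The 10 markers of dividing cells fell in 9 cases (median -1.45), as did 6 of 9 myoblast markers (median -1.03), with the Notch target Heyl at -3.07 (SE 0.10) and Myf5, which rose, at 1.69 (SE 0.35). Of 10 myotube markers, 2 rose and 3 fell (median -0.16), none past 2-fold, and within library numbers 1 to 3 and 4 to 6 the number that fell was 0 and 5. Of the 4 fibroblast and adipocyte markers tested, 2 fell (median -0.50).

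Among 15 genes that MYC is known to repress, 5 rose and 3 fell (median log2 fold change -0.17). The share that fell was near the 20.3% of all tested genes, and 22% of all tested genes rose. The growth arrest gene Gadd45a rose from 2017 ± 342 to 9163 ± 3654 normalized counts (SD, n = 6; log2 fold change 2.18, SE 0.24, edgeR adjusted p = 8.34e-06), and Ndrg1, a differentiation and stress gene, rose by 2.05 (SE 0.07, edgeR adjusted p = 7.75e-12), with Gm17035 over 90 of its last 400 bases on the opposite strand. The matrix protein gene Thbs1 and the receptor gene Pdgfrb fell, at -2.69 (SE 0.13) and -1.39 (SE 0.21) on the same scale.

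**Figure D4:**
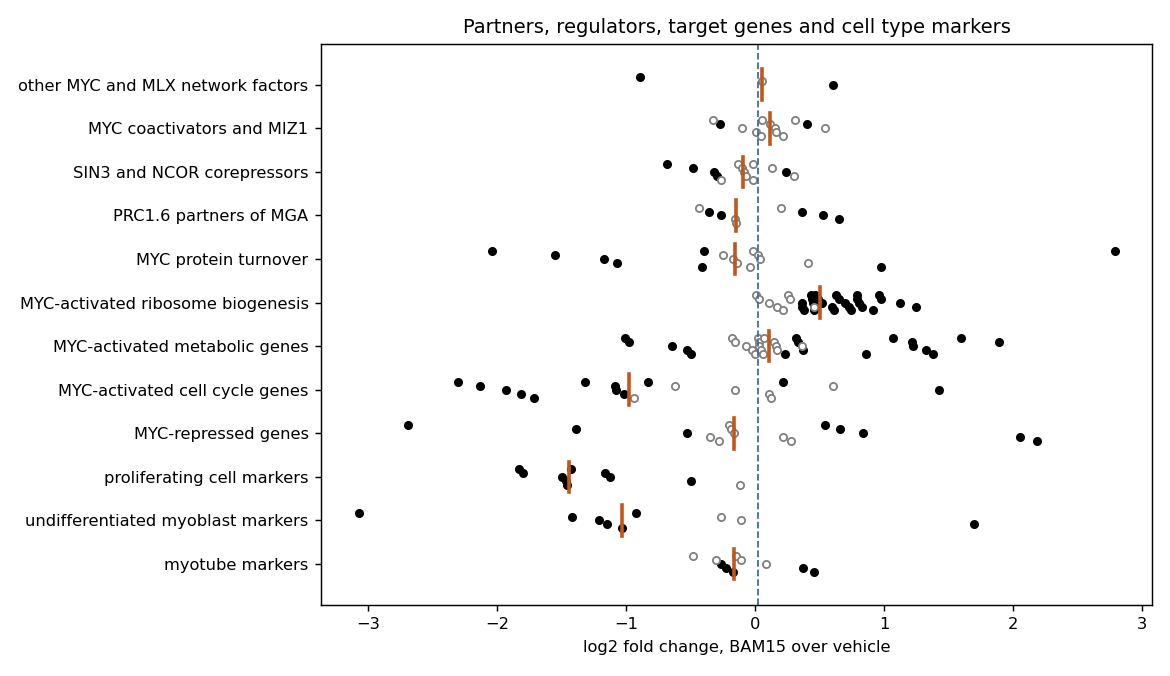
Log2 fold change of BAM15 over vehicle (horizontal axis) for the tested genes of 12 lists, 1 point per gene, filled where the edgeR adjusted p-value was below 0.01, with the list median as an orange bar and the median of all 12730 tested genes, 0.02, as a dashed line. The ribosome biogenesis median is 0.50 and those of the cell cycle targets and dividing cell markers are -0.98 and -1.45.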

How the data were processed

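RNA of C2C12 myotubes was measured in 6 BAM15 and 6 vehicle libraries. The authors made QuantSeq 3′ libraries and counted reads with BlueBee software, and the deposited counts are whole reads per Ensembl gene, without normalization. The submitters' processing notes name DESeq2 1.22.2 and the builds GRCm38 and mm10; the aligner, annotation and strand are not given in the sources used here. The labels state 50 bp reads and the methods 75 bp. A deposited table of normalized signal, the counts divided by 1 DESeq2 size factor per library, served only as an alternative and for gene symbols. The tables also hold 11 columns of other samples, which were not used.

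The members and gene lists were chosen with earlier results of these data known, so members have no test and lists no set test. Counts were fitted with edgeR 4.0.16 in R 4.3.3 (filterByExpr, which removed 2383 genes, TMM factors of 0.932 to 1.04, robust quasi-likelihood test on the condition alone), and p-values were adjusted over 12730 genes. SE is the log2 fold change divided by the square root of F. All members were named, with up to 3 genes per list and direction past the 3 thresholds, every marker and further network factor where needed, and the 3 nearest genes per member (pseudocount 0.5, base mean above 50). Fbxw7 was named in addition. No library was a copy of another of its own group (chi-square per gene 4.72 or more in every pair within a group). Pairs across the groups were not compared. The tests were checked on simulated data. Alternatives were DESeq2 1.42.0, 2 other scalings, no filter, a replicate block, each library left out, library numbers 1 to 3 and 4 to 6 alone, and 2 other thresholds. Positions came from GENCODE M21 and promoters from RefSeq (GRCm38.p6). The E2F motif of 7 bases was chosen after the promoters had been read.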

Additional observations from a re-analysis of the deposited data

Results flagged for a closer look

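In 16 groups of 6 libraries, 1 per member and condition, 3 held a library far from the rest by Dixon's ratio, the gap to the nearest library divided by the group's range. Vehicle replicate 2 had the highest Myc level, 24.5 normalized counts with a ratio of 0.657. Vehicle replicate 4 had the highest Mnt level (319, ratio 0.745) and the lowest Mxd4 level (2447, ratio 0.634). Chance alone flags about 1 in 20 groups, and none of these libraries lay within the range of the BAM15 libraries for its gene.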

How the results depend on the processing

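The 8 members kept the sign of their change under every tool, scaling, filter and left-out library run, with the exception of Mga, at -0.0206 within library numbers 4 to 6. With a log2 fold change above 2 required, 134 genes were higher and 55 lower, 0 members were higher and 1 lower (Mxd3), and the lists gave 1 lower for MYC turnover, 0 higher for ribosome biogenesis, 0 higher and 0 lower for metabolism, 0 higher and 2 lower for the cell cycle, 1 lower for repressed genes, 0 lower for dividing cells and for fibroblasts and adipocytes, and 0 higher and 1 lower for myoblasts. Past the 3 thresholds, numbers 1 to 3 alone gave 2 higher for turnover and 4 for ribosome biogenesis, and library size only or the replicate block gave 2 lower for metabolism. At the adjusted p threshold alone, further network factors gave 0 higher within numbers 1 to 3. Coactivators gave 2 higher with DESeq2, the block and either set of numbers, and 2 lower within 4 to 6. Corepressors gave 2 higher with DESeq2, 3 within 1 to 3, and 0 with library size only, the block or within 4 to 6. PRC1.6 gave 1 lower with the block and 0 within 4 to 6. Cell cycle targets gave 1 higher with library size only or in either set. Repressed genes gave 5 lower within 1 to 3. Myotube markers gave 1 higher with library size only, and 0 lower within 1 to 3 against 5 within 4 to 6. Leaving out 1 library gave ranges of 1 to 2 members higher (2 without vehicle replicate 4 or 5), and of 1 to 2 higher for turnover and 0 to 2 lower for metabolism past the 3 thresholds. At the adjusted p alone these ranges were 1 to 2 higher for coactivators, 0 to 2 higher for corepressors (1 only with vehicle replicate 3 left out), 0 to 2 lower for PRC1.6 (fewer without BAM15 replicate 1 or 6 or vehicle replicate 1 or 2), and 1 to 2 higher and 0 to 4 lower for myotube markers. With the deposited normalized values the vehicle mean of Mxd4 was 2718. Max passed the adjusted p threshold with DESeq2, the block, within 4 to 6 and without BAM15 replicate 1 or 2. The cause of these shifts was not tested. Library numbers are shared by the groups, and deviations of same-numbered libraries correlated at -0.076 to 0.311, so the numbers are not shown to pair the libraries 1 to 1. By these deviations, BAM15 libraries 1 to 3 each matched vehicle library 3 best, and BAM15 libraries 4 to 6 each matched vehicle library 6 best. What the libraries of a set share was not tested. Depth limits Myc and Mxd3 most, with 11 to 23 reads in the vehicle and 11 to 18 in the BAM15 libraries.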
